A study of Mus musculus with 2 samples.

Results

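The IGHV7 genes, also known as the S107 family, are a small group of mouse heavy-chain variable genes, and they were followed here through B cell receptors sequenced from single Peyer's patch cells. Members were all genes whose name begins with IGHV7-, read in barcodes with exactly 1 productive heavy chain, called cells here. Such cells numbered 79 of 6241, with 26 using IGHV7-1, 49 using IGHV7-3 and 4 using IGHV7-4, which made 3 of the 95 IGHV genes found. The Cre+ library came from adult female H2-Ab1 fl/fl; Villin:Cre+ mice, in which Cre driven by Villin, a gene of gut epithelium, removes the floxed gene of an MHC class II beta chain. The Cre- library came from adult female H2-Ab1 fl/fl; Villin:Cre- mice, so the floxed allele was carried by both groups. White blood cells were enriched by CD45 beads, 4 mice were pooled per library, and receptor transcripts were amplified with a 10x Genomics 5' V(D)J kit.

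Each genotype has a single library (n = 1), which leaves every difference without a replicate check, and no test was made. Intervals are exact 95% Clopper-Pearson intervals, or for a difference a combination of both exact intervals, and they cover counting error only. The Cre+ library held 3294 cells and the Cre- library 2947, from 355258 and 355985 UMIs (unique molecular identifiers, which count transcripts rather than reads). All 79 IGHV7 chains had a constant gene, and 38 of 39 Cre+ and 40 of 40 Cre- cells also had a light chain. The libraries shared 10 barcodes, none of them of an IGHV7 cell. The series' design text names the Cre-negative genotype for both groups, against the sample labels, and the receptor tables hold no transcript of H2-Ab1 or of cell type markers, so neither the genotype nor the cell types were checked.

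A heavy chain is assembled from a V, a D and a J gene joined to a constant gene, and the CDR3, the loop across these joints, is its most variable stretch. A naive B cell carries IgM and IgD, and class switching replaces them with IgA, IgG or IgE. IGHV7-1 is best known from T15, the mouse antibody type against phosphorylcholine of bacterial surfaces, which joins IGHV7-1 to IGHD1-1 and IGHJ1 and pairs it with the light-chain gene IGKV7-33. Such antibodies are a textbook product of B-1 cells, which make natural IgM.

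In the RefSeq table of GRCm38.p6 the family lies on chromosome 12, at 113896408 to 113896946 for Ighv7-1, 113912025 to 113912483 for Ighv7-2, 114153180 to 114153644 for Ighv7-3 and 114222788 to 114223254 for Ighv7-4. Counted from the constant-gene end they are the IGHV genes number 33, 34, 51 and 55 of 183, with Ighv7-1 at 473.7 kb and Ighv7-4 at 800.1 kb from Ighm. Ighv7-2 was found in none of the 6241 cells, where a count of 0 allows at most 0.0481%. Whether the authors' gene reference holds this gene is not known here. RefSeq gives Ighv7-1 and Ighv7-3 the type V_segment_pseudogene, and productive chains with them were read in 75 cells. They were the only 2 of the 95 IGHV genes found that carry this type.

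The 3 genes differ in the commonest start of the CDR3, whose first bases are encoded by the V gene. The commonest first 12 bases of each are given, 5′ to 3′, with the fourth codon in capitals because it is where IGHV7-1 and IGHV7-3 part.
IGHV7-1: tgtgcaagaGAT
IGHV7-3: tgtgcaagaTAT
IGHV7-4: tgtgtaaaaGCT
The first was found in 20 of 26 IGHV7-1 cells, and in 2.63% of the 6162 cells with another IGHV family. The second was found in 21 of 49 IGHV7-3 cells and in 0.698% of the other cells. The third stood in 4 of 4 IGHV7-4 cells and in 0 of 6162 others, which allows up to 0.0487%. In protein terms the fourth CDR3 residue was the acidic aspartate in 20 of 26 IGHV7-1 cells, against tyrosine in 25 and serine in 12 of 49 IGHV7-3 cells. All 4 IGHV7-4 cells read valine, lysine, alanine from the second residue on.
The 4 IGHV7-4 cells are printed whole, as the rarest member, with these first 12 bases in capitals.
Cre+, IGHD1-1, IGHJ1, IGKV12-46: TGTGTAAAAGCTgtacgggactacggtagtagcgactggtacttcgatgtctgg
Cre-, IGHD4-1, IGHJ3, IGKV12-41: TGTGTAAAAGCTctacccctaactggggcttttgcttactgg
Cre-, IGHD1-1, IGHJ1, IGKV5-43: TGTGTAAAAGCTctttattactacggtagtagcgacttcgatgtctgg
Cre-, IGHD2-4, IGHJ1, IGKV3-4: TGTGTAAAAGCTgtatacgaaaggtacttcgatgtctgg
All 4 carried IgM, with 4 different kappa genes.

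The family held similar shares of both libraries. It made up 39 of 3294 Cre+ cells, 1.18% (0.843 to 1.62), against 1.36% (0.971 to 1.84) of the Cre- library, with 40 cells of 2947. The difference of -0.173 percentage points had an interval of -0.767 to 0.405, so no difference was detectable at this depth. IGHV7-1 was used by 14 Cre+ cells (0.425%, 0.233 to 0.712) and 12 Cre- cells (0.407%, 0.211 to 0.710), a difference of 0.0178 points (-0.341 to 0.366). For IGHV7-3 these were 24 Cre+ cells (0.729%, 0.467 to 1.08) and 25 Cre- cells (0.848%, 0.550 to 1.25), a difference of -0.120 points (-0.599 to 0.343). IGHV7-4 had 1 Cre+ and 3 Cre- cells. By the rule of a ratio of at least 1.5 either way and intervals that do not overlap, 4 of 64 IGHV genes differed between the libraries (6.25%), and neither IGHV7-1 nor IGHV7-3 was among them. IGHV7-3 was the commoner member in each library, but its interval overlapped that of IGHV7-1. IGHV7-1 held 35.9% of the family in Cre+ and 30% in Cre- cells (difference 5.90 points, -16.2 to 27.5).

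**Figure D1:**
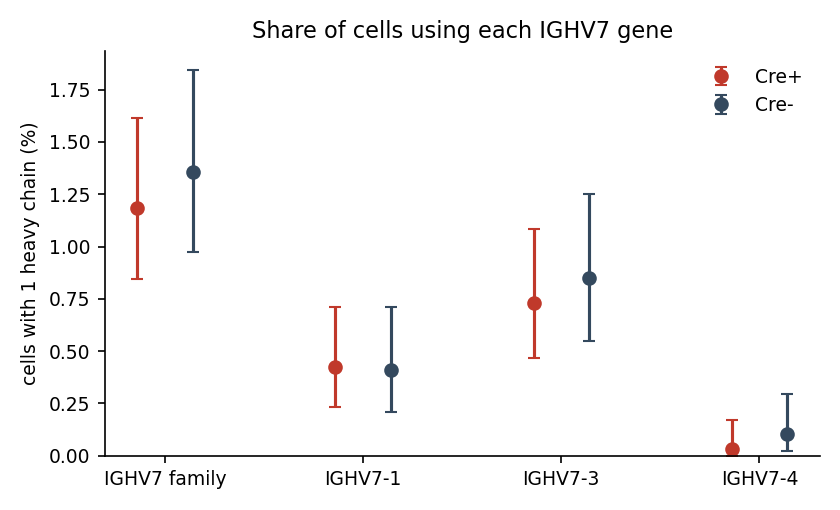
Share of cells with 1 heavy chain (%, vertical axis) that used the IGHV7 family or each of its genes, for Cre+ (red, left) and Cre- (dark, right). Points are shares and bars exact 95% intervals. The family lies at 1.18% in Cre+ and 1.36% in Cre-, and the bars of the libraries overlap for every gene.

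Nearly all IGHV7 cells were unswitched. In the Cre+ library 25 carried IgM, 13 IgD and 1 IgA, and in the Cre- library 35 carried IgM and 5 IgD. The switched share was 2.56% (1 of 39, interval 0.0649 to 13.5) in Cre+ IGHV7 cells, against 11.2% of the other Cre+ cells. It was 0 of 40 in Cre- IGHV7 cells, which allows up to 7.50%, against 23.2% of the other Cre- cells. The family had the lowest switched share of the 12 and 11 IGHV families with at least 15 cells. Its difference from the other cells was -8.68 points in Cre+ (-11.4 to 2.28) and -23.2 points in Cre- (-24.8 to -14.3). The Cre+ interval holds 0.

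In Cre- a switched share below that of the other cells was common among IGHV genes, and in Cre+ it was not. An interval below 0 was found for 2 of 12 families (16.7%) and 6 of 59 genes (10.2%) in Cre+, and for 9 of 11 families (81.8%) and 25 of 55 genes (45.5%) in Cre-. The other Cre- cells include 1 lineage of 417 IGHV4-1 cells, 416 of them switched, and the largest Cre+ lineage has 64 IGHV5-17 cells, 54 of them switched. With those lineages left out, 9.76% of the other Cre+ cells and 10.3% of the other Cre- cells were switched, and the Cre- difference was -10.3 points (-11.6 to -1.43). Over both libraries 1 of 79 IGHV7 cells was switched, 1.27% (0.0320 to 6.85).

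The 1 switched cell was a Cre+ cell with IGHV7-3, IGHD1-1, IGHJ2 and IgA, the class secreted into the gut. It had 65 heavy-chain UMIs, the second highest count among Cre+ IGHV7 cells, and 157 UMIs of an IGKV10-96 light chain. A further switched chain, IgG2b with IGHV7-3, IGHD2-6 and IGHJ3, was read from 2 UMIs in a barcode with 2 heavy chains and is not among the cells. Both CDR3s are shown because they also depart from the commonest bases of their genes, in capitals.
IgA cell: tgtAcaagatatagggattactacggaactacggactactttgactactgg
IgG2b chain: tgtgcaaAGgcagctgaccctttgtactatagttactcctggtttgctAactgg
Counted from 1 at the 5′ end of the CDR3, the IgA cell differs from the commonest IGHV7-3 start by G4A. The IgG2b chain differs by G8A and A9G at the start and by T49A in the IGHJ3 end.

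The split between IgM and IgD differed between the libraries for IGHV7-3. Of the 23 unswitched Cre+ IGHV7-3 cells 11 carried IgD, 47.8% (26.8 to 69.4), and of the 25 in Cre- it was 3, or 12% (2.55 to 31.2). The difference of 35.8 points had an interval of 7.35 to 59.4. IGHV7-1 had 2 of 14 in Cre+ and 2 of 12 in Cre-, a difference of -2.38 points (-36.5 to 29.7). The other IGHV cells had 33.9% in Cre+ and 32.3% in Cre-. A higher IgD share in Cre+ with an interval above 0 was found for 4 of 56 IGHV genes (7.14%), namely IGHV7-3, IGHV8-12, IGHV1-52 and IGHV1-80. The comparison was chosen after its values were seen. The kit reports 1 constant gene per assembled chain, so a naive cell that transcribes both is counted under only one of them.

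**Figure D2:**
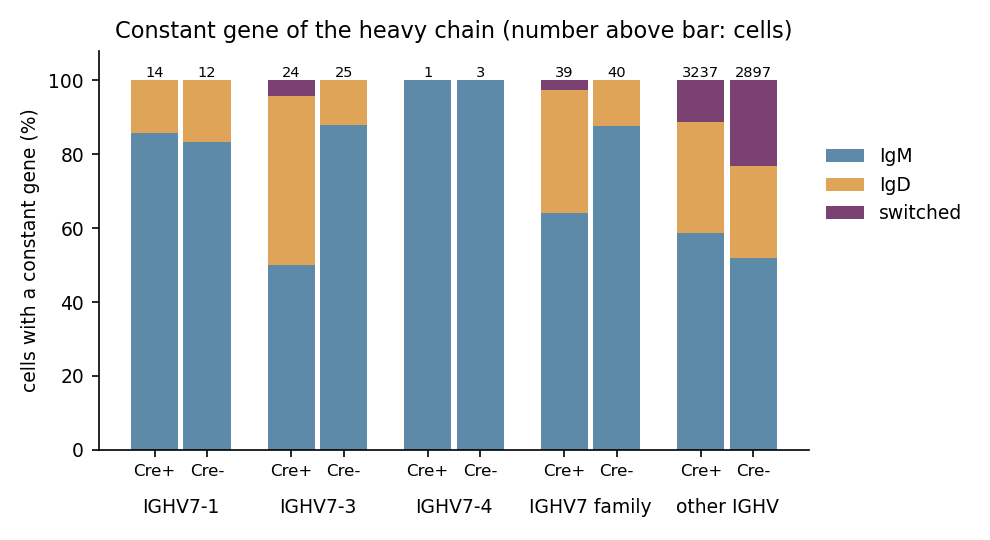
Constant gene of the heavy chain as a share of cells (%, stacked bars), for each IGHV7 gene, the family and all other IGHV cells, with Cre+ left and Cre- right and the number of cells above each bar. The switched part is 1 cell in Cre+ IGHV7-3 and empty in the other IGHV7 bars, and the IgD part of IGHV7-3 is larger in Cre+ than in Cre-.

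The J gene set the family apart from the other cells. IGHJ1, one of the 4 heavy-chain J genes of the mouse, stood in 15 of 39 Cre+ IGHV7 cells, 38.5% (23.4 to 55.4), against 16.7% of the other Cre+ cells. In the Cre- library it stood in 14 of 40 IGHV7 cells, 35% (20.6 to 51.7), against 15.9% of the others. The differences were 21.8 points (6.62 to 38.7) and 19.1 points (4.67 to 35.8). In each library IGHV7 had the highest IGHJ1 share of all ranked families. Among families, 2 of 12 in Cre+ (16.7%) and 2 of 11 in Cre- (18.2%) had an interval above 0, and IGHV7 was the only family that did so in both libraries, next to IGHV8 in Cre+ and IGHV5 in Cre-. Among unswitched cells alone the differences were 22.0 points (6.50 to 39.2) and 16.4 points (1.97 to 33.2).

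Between the members the counts varied by library. IGHV7-3 used IGHJ1 in 10 of 24 Cre+ and 5 of 25 Cre- cells. For IGHV7-1 it was 4 of 14 Cre+ and 7 of 12 Cre- cells, and 3 of all 4 IGHV7-4 cells used it. Among genes with at least 15 cells, IGHV7-3 had the highest IGHJ1 share of 59 in Cre+, where 4 genes (6.78%) had an interval above 0. In Cre- it ranked 21st of 55, and 3 genes there (5.45%) had an interval above 0. Against the cells of other IGHV families IGHV7-3 stood 24.98 points higher in Cre+ (5.38 to 46.7) and 4.11 points higher in Cre- (-9.13 to 24.9). IGHV7-1, too small for the ranking, stood 11.9 points above the other Cre+ cells (-8.34 to 41.4) and 42.4 points above the other Cre- cells (11.7 to 69.0). The interval above 0 thus belonged to IGHV7-3 in Cre+ and to IGHV7-1 in Cre-, and whether the members differ was not tested.

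The other 3 J genes took the remaining 24 Cre+ and 26 Cre- IGHV7 cells. IGHJ2 was used by 10 Cre+ and 6 Cre- IGHV7 cells (25.6% and 15%, against 36.4% and 30.7% of the others), IGHJ3 by 4 and 6 (10.3% and 15%, against 21.8% and 32.5%), and IGHJ4 by 10 and 14 (25.6% and 35%, against 25.1% and 20.9%). The IGHJ2 difference was -10.8 points in Cre+ (-23.5 to 5.77) and -15.7 points in Cre- (-25.1 to -0.721). The IGHJ3 difference was -11.6 points in Cre+ (-19.1 to 2.48) and -17.5 points in Cre- (-27.0 to -2.58). Among unswitched Cre- cells it was -5.54 points (-15.0 to 9.39), and the 417-cell switched lineage uses IGHJ3. For IGHJ4 no interval of the whole family against the other cells excluded 0. IGHJ4 was found in 3 of 24 Cre+ and 10 of 25 Cre- IGHV7-3 cells, a difference of -27.5 points (-51.0 to -0.101). Among unswitched IGHV7-3 cells this difference was -27.0 points (-50.6 to 0.943), and that interval holds 0.

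**Figure D3:**
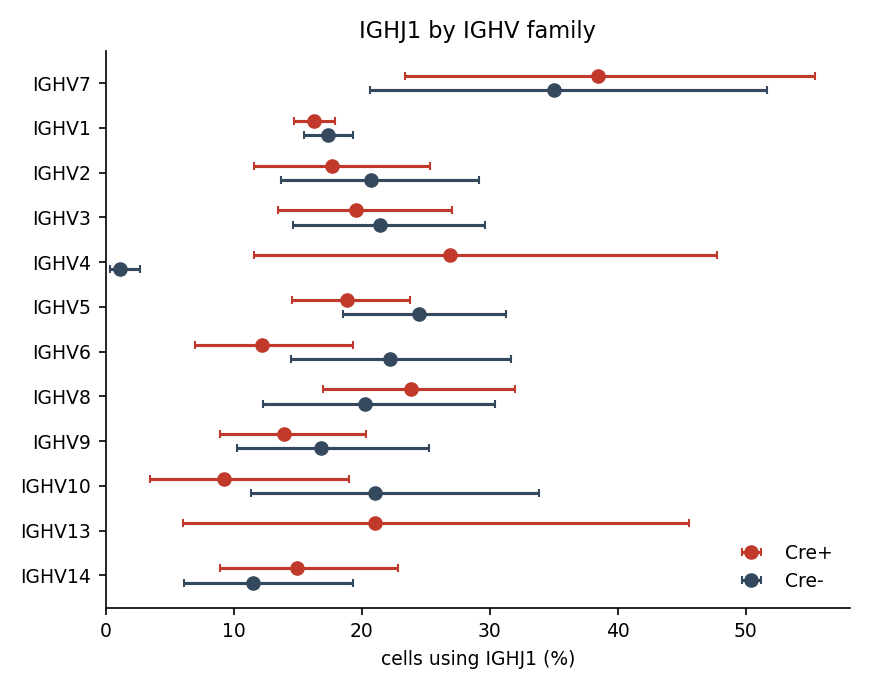
Share of cells that used IGHJ1 (%, horizontal axis) for each IGHV family with at least 15 cells in a library, with IGHV7 in the top row, Cre+ in red above Cre- in dark. Bars are exact 95% intervals. IGHV7 has the highest share in both libraries, 38.5% and 35%, and the low Cre- value of IGHV4 is that of the family with the 417-cell lineage.

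No difference in D gene use between the family and the other cells was detectable for its commonest D gene. A D gene was called in 32 of 39 Cre+ and 37 of 40 Cre- IGHV7 cells. IGHD1-1 was the commonest, in 11 Cre+ cells (34.4%, against 36.4% of the others) and 10 Cre- cells (27.0%, against 30.0%). The differences were -2.02 points (-17.9 to 16.9) and -3.0 points (-16.4 to 14.2). The IGHD2 genes together took 16 Cre+ and 16 Cre- cells. Among them IGHD2-4 had 4 and 6, IGHD2-6 had 4 and 5, IGHD2-3 had 4 and 3, IGHD2-8 had 4 and 0 and IGHD2-7 had 0 and 2. IGHD4-1 was used by 5 Cre+ and 7 Cre- cells, IGHD3-2 by 0 and 3, and IGHD5-8 by 0 and 1.

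The join that defines T15, IGHV7-1 with IGHD1-1 and IGHJ1, was present in 4 cells. There were 2 of 14 IGHV7-1 cells in Cre+ and 2 of 12 in Cre-. The same D and J pair was found in 7.50% of the other Cre+ cells and 6.88% of the other Cre- cells, and in 4 of 24 Cre+ and 1 of 25 Cre- IGHV7-3 cells. The 4 IGHV7-1 cells are printed because this join is what IGHV7-1 is known for. A 16-base stretch that 3 of the 4 share is in capitals, and the next base is t in these 3 as well. All 4 cells were picked for the same D gene, so a shared stretch adds nothing to that choice.
Cre+, IGKV6-20 light chain: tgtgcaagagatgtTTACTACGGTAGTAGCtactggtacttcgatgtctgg
Cre+, IGKV10-96 light chain: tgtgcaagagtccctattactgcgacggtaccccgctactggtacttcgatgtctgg
Cre-, IGKV12-41 light chain: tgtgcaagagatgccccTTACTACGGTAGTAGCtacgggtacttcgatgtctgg
Cre-, IGKV6-15 light chain: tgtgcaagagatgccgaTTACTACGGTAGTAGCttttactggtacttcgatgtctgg
Their CDR3s had 17 and 19 residues in Cre+ and 18 and 19 in Cre-, so none had the 16 residues of the criterion set for T15. None paired with IGKV7-33, which was called in 0 of 75 kappa-bearing IGHV7 cells (up to 4.00%) and in none of the 22408 contigs of either library. Whether the authors' gene reference holds IGKV7-33 is not known here. All 4 cells were unswitched. Another such join, 16 residues long and with an IGKV8-28 light chain, was read from 3 UMIs in a Cre- barcode with 2 heavy chains.

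IGHV7 heavy chains were paired with many light chains. Kappa chains were found in 37 Cre+ and 38 Cre- IGHV7 cells and came from 36 IGKV genes in all. Lambda chains were found in 1 of 38 Cre+ cells (IGLV1) and 2 of 40 Cre- cells (IGLV1 and IGLV2), always with IGHV7-3. The lambda share of 2.63% in Cre+ compared with 4.59% of the other cells, and 5% in Cre- with 4.21%. Both intervals of the difference held 0 (-4.64 to 9.24 and -3.67 to 12.7).

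The kappa genes with the most IGHV7 cells over both libraries were IGKV10-96 with 7, IGKV1-117 with 6, IGKV1-110 and IGKV6-23 with 5 each, and IGKV6-20 and IGKV8-24 with 4 each. Of the 75 kappa-bearing cells 26 used IGHV7-1 and 45 IGHV7-3. IGHV7-1 accounted for 5 of the 7 IGKV10-96 cells and IGHV7-3 for 6 of the 6 IGKV1-117 cells, counts too small to set against those shares. All 6 genes had a higher share of kappa-bearing IGHV7 cells than of the other kappa-bearing cells, and they were named for having the most IGHV7 cells. The shares were 9.33% against 5.03% for IGKV10-96, 8% against 4.32% for IGKV1-117 and 6.67% against 4.19% for IGKV1-110. They were 6.67% against 3.10% for IGKV6-23, 5.33% against 1.95% for IGKV8-24 and 5.33% (1.47 to 13.1) against 0.586% (0.406 to 0.818) for IGKV6-20. By library IGKV6-20 was found in 3 of 37 Cre+ IGHV7 cells (8.11%, 1.70 to 21.9), against 0.650% of the others (0.398 to 1.002). In Cre- it was found in 1 of 38 (2.63%, 0.0666 to 13.8), against 0.513% (0.281 to 0.859), where the intervals overlap. The most repeated light-chain CDR3 of the family, from IGKV1-117, was found in 2 Cre+ and 1 Cre- cells with 3 different IGHV7-3 heavy chains.
Shared IGKV1-117 CDR3: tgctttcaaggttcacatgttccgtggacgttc
It was also carried by 77 cells with other IGHV genes, so it is a common light-chain join here. A second productive light chain was found in 4 of 38 Cre+ IGHV7 cells (10.5%, against 9.03% of the others) and in 8 of 40 Cre- IGHV7 cells (20%, against 7.44%). The Cre- difference was 12.6 points (1.56 to 28.2) and the Cre+ difference 1.5 points (-6.15 to 15.8). How many other IGHV genes or families show such an interval was not counted, and the Cre- share rests on 8 cells.

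The mean CDR3 length of IGHV7 cells was above that of the other cells in both libraries, by 0.449 residues in Cre+ and 1.37 in Cre-. It averaged 14.4 ± 2.64 residues in Cre+ IGHV7 cells (SD, n = 39 cells of 1 library), against 13.96 ± 2.61 in the other Cre+ cells. In Cre- it averaged 15.03 ± 2.27 (n = 40) against 13.7 ± 2.65. The medians were 15 for IGHV7 and 14 for the others in both libraries, and lengths ran from 9 to 19 in Cre+ and 11 to 22 in Cre- IGHV7 cells. With 1 library per genotype this gap has no replicate check. Among unswitched cells the Cre- means were 15.03 for IGHV7 against 14.1, a gap of 0.882, and the Cre+ means 14.3 against 14.04, a gap of 0.301.

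The mean charge of the CDR3 was lower for IGHV7-1 than for IGHV7-3 in both libraries. Counting lysine and arginine as positive and aspartate and glutamate as negative between the first and last residue, IGHV7-1 averaged -1.23 ± 1.24 (SD, n = 26) and IGHV7-3 -0.08 ± 1.02 (n = 49). The mean for IGHV7-1 was -1.43 in Cre+ and -1.0 in Cre- cells, and for IGHV7-3 it was 0.12 in Cre+ and -0.28 in Cre- cells. The aspartate at the fourth residue of IGHV7-1 counts in this difference. A cysteine inside the CDR3 was found in 2 of 39 Cre+ and 2 of 40 Cre- IGHV7 cells, all IGHV7-3, against 1.38% of the others in each library.

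**Figure D4:**
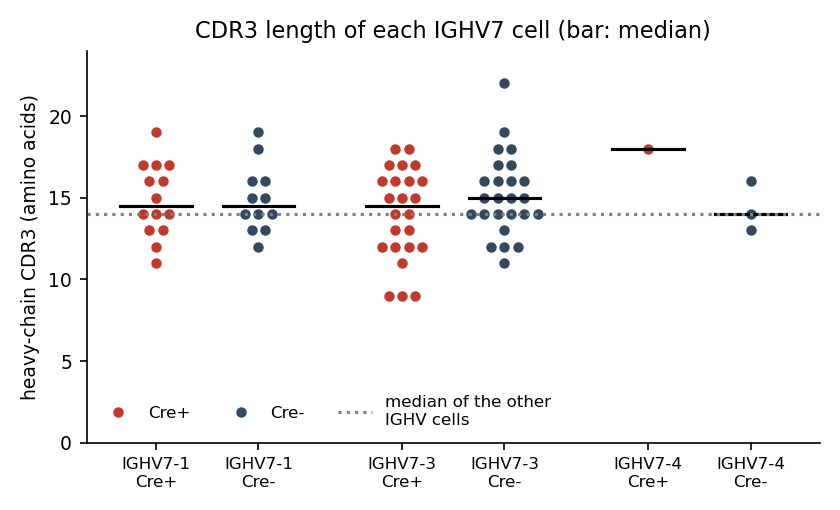
Length of the heavy-chain CDR3 in amino acids (vertical axis) for each IGHV7 cell, by gene and library, with Cre+ left of Cre-. Each point is 1 cell, the black bar is the median, and the dotted line is the median of the other IGHV cells, 14 in both libraries. The points of the libraries overlap across their ranges.

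Few IGHV7 CDR3s departed from the commonest bases of their genes. Mutation can be read here only within the CDR3. The measure was a mismatch in the 9 bases before the last codon to the commonest form of that J gene in unswitched cells. It also counts bases lost or added where the genes were joined, so it does not measure mutation alone. Such a mismatch was found in 2 of 39 Cre+ IGHV7 cells (5.13%, against 17.3% of the others) and in 1 of 40 Cre- cells (2.50%, against 15.4%). The differences were -12.1 points (-16.8 to 0.126) and -12.9 points (-15.7 to -2.17). The measure depends strongly on the J gene, since among unswitched other cells it was 3.78% for IGHJ1 and 29.2% for IGHJ2 in Cre+, and 2.66% and 29.7% in Cre-. IGHV7 cells used IGHJ1 more and IGHJ2 less, as given above, and the part of this in the difference was not tested. The first 9 bases of the CDR3 matched the commonest start of the gene in all but 1 of 38 unswitched Cre+ and 2 of 40 Cre- IGHV7 cells, all 3 of them IGHV7-3. In these 3 cells only base 9, the one of them nearest the joint, differed. Among the other unswitched cells 23.2% in Cre+ and 22.8% in Cre- had a mismatch in the first 9 bases. This count too can include bases lost at the joint, and that part was not tested.

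No expanded IGHV7 clone was found. All 79 CDR3 nucleotide sequences were distinct, none was shared between the libraries or with a cell of another IGHV gene, and each of the authors' deposited clonotypes with an IGHV7 chain held 1 barcode. By the lineage rule of the same IGHV, IGHJ and length with 85% identical CDR3 bases, a lineage of 2 was formed once in Cre+ (2 of 39 cells, against 10.2% of the others) and once in Cre- (2 of 40 cells, against 19.7%). Of the 574 other Cre- cells in lineages, 417 belong to the 1 large IGHV4-1 lineage. Of the 332 such Cre+ cells, 64 belong to the IGHV5-17 lineage. Both IGHV7 lineages are IGHV7-3 and are printed with the differing bases in capitals, because they lie at the edge of the rule.
Cre+, IGHJ1, IGKV8-24: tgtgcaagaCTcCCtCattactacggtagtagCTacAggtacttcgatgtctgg
Cre+, IGHJ1, IGKV12-89: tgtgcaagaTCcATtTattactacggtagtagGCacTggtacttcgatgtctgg
Cre-, IGHJ4, IGKV5-45: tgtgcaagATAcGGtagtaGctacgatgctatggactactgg
Cre-, IGHJ4, IGKV19-93: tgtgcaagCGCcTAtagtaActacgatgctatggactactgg
The Cre+ pair shares 46 of 54 bases (85.2%) and the Cre- pair 36 of 42 (85.7%). In each pair the light-chain genes differ too. The Cre- pair also differs in the D gene called, IGHD1-1 in the IGKV5-45 cell and IGHD2-6 in the IGKV19-93 cell. Both cells of the Cre+ pair have IGHD1-1. At 90% identity no IGHV7 cell was in a lineage.

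Unswitched IGHV7 cells had more heavy-chain UMIs than other unswitched cells. The median was 13.5 in Cre+ IGHV7 cells (range 3 to 3501, n = 38), against 8 in the others, and 13.5 in Cre- IGHV7 cells (range 2 to 64, n = 40), against 9. Among families with at least 15 unswitched cells IGHV7 ranked 1st of 12 in Cre+ and 3rd of 11 in Cre-. IGHV7-3 had a median of 15 in each library and ranked 1st of 56 genes in Cre+ and 3rd of 51 in Cre-. IGHV7-1 had medians of 12 in Cre+ and 10.5 in Cre-. Light-chain UMIs of unswitched cells had medians of 32 in Cre+ IGHV7 cells against 29, and 39 in Cre- IGHV7 cells against 32. The comparison was chosen after its values were seen, and UMIs of the receptor cannot be told apart here from total RNA of the cell.

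One IGHV7 cell stood far above the rest. A Cre+ IgM cell with IGHV7-3, IGHJ2 and no D gene called had 3501 heavy-chain and 7042 IGKV19-93 light-chain UMIs. Its CDR3 has 9 residues, and the capitals mark where it departs from the commonest IGHJ2 end (T16G, T17G and T18C, counted from the 5′ end of the CDR3). These bases directly precede the last 9, which match that end. They can include bases lost or added at the joint, and that part was not tested.
UMI-rich IgM cell: tgtgcaagatattggGGCgactactgg
It ranked 2nd of 3294 Cre+ cells and held 4.72% of the heavy-chain UMIs of all Cre+ cells and 84.7% of those of the Cre+ IGHV7 cells. Such counts were rare, with 15 Cre+ and 13 Cre- cells above 1000, of which 4 and 3 were IgM. The next IGHV7 cells had 65 UMIs in Cre+ and 64 in Cre-.

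**Figure D5:**
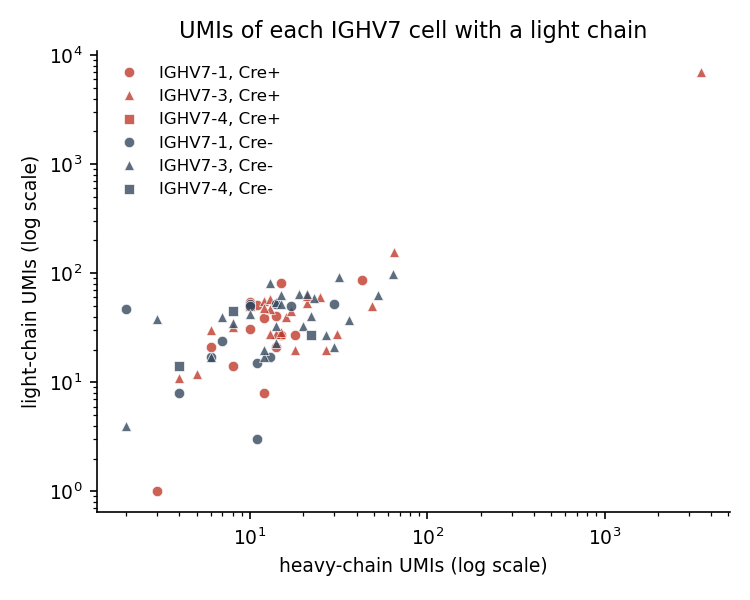
Heavy-chain UMIs (horizontal axis, log scale) against light-chain UMIs (vertical axis, log scale) for each IGHV7 cell with a light chain, red for Cre+ and dark for Cre-, with a marker shape per gene. The libraries overlap across the lower counts, up to 65 heavy-chain UMIs in Cre+ and 64 in Cre-, and 1 Cre+ IGHV7-3 cell lies apart at 3501 and 7042.

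The isotype make-up most like that of IGHV7-1 was found in IGHV10-3, IGHV6-6 and IGHV13-2. Likeness was the sum of the absolute differences in IgM, IgD, IgA and IgG shares, averaged over the 2 libraries, and these genes were 19.6, 21.8 and 21.9 points away, against a median of 49.0 over 63 genes. For IGHV7-3 the nearest were IGHV3-1 at 10.9, IGHV8-12 at 22.7 and IGHV1-63 at 23.8 points, against a median of 45.7. Of all its cells IGHV3-1 had 40% with IgD in Cre+ and 11.1% in Cre-, and IGHV8-12 had 52.9% and 17.9%, next to 45.8% and 12% for IGHV7-3. Both genes were picked by these same shares, so their likeness in IgD follows from the choice. IGHV3-1 rests on 15 Cre+ and 9 Cre- cells, IGHV13-2 on 19 and 9, and IGHV1-63 on 10 and 10. IGHV7-1 itself has 14 and 12 cells, and the distances carry no interval, so their order is not firm.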

How the data were processed

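Contig and clonotype tables of 2 libraries were used. Cell Ranger and GRCm38 are given in the submitters' processing notes, without a Cell Ranger version. The contig tables hold, as deposited by the authors, the count of reads and of UMIs per assembled chain, and the clonotype tables hold the count of barcodes, both without normalisation. All contigs carried the cell flag, and gene expression was not used here.

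A cell was a barcode with exactly 1 productive heavy chain, and barcodes with more were left out in place of a doublet caller. The light chain was the productive one with most UMIs. Switched meant IgA, IgG or IgE, over cells with a constant gene. Lineages used single linkage at 85% CDR3 identity. Genes entered ranks from 15 cells in a library or 20 in both. Where a count was 0, the limit is 3 counts of the total. Named were all members, constant, J, D and lambda genes, the 5 commonest IGKV genes with ties, all lineages of 2 or more and all switched cells. Members and lists were chosen with earlier results of these data known. With 1 library per genotype no test was made. Names and positions came from RefSeq (95 of 95 IGHV names matched). Python 3.11.15, pandas 2.3.3 and scipy 1.17.1 were used. The interval of a difference was checked on simulated data at a single pair of shares, neither of them near 0.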

Additional observations from a re-analysis of the deposited data

Results flagged for a closer look

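Nonproductive heavy contigs, which enter no comparison above, also held IGHV7 chains, at shares whose intervals overlap between the libraries. Of those with a CDR3, 8 of 231 in Cre+ (3.46%, interval 1.51 to 6.71) and 3 of 159 in Cre- (1.89%, 0.391 to 5.41) were IGHV7. IGHV7-1 alone had 8 in Cre+ (3.46%) and 2 in Cre- (1.26%, 0.153 to 4.47), next to 0.425% and 0.407% of the cells with a productive chain. In Cre+, 6 of the 8 used IGHD1-1, 7 of the 8 lay in a cell with 1 productive heavy chain, and the median was 2 UMIs. The IGHD1-1 share of all nonproductive contigs and the same contrast for other IGHV genes are not given here. In 4 of the 8 the CDR3 as called read lysine and arginine at residues 2 and 3. All 26 productive IGHV7-1 cells read alanine and arginine there. The 4 contigs begin with the bases that 22 of the 26 productive cells carry from the third base of their CDR3 on. Their lysine and arginine are thus these same bases read in another frame. One of the 4 contigs, with IGHD1-1, IGHJ1 and IgA, had 21 UMIs. Its CDR3 is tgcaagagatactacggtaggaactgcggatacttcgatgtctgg.

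Among productive chains of barcodes with 2 or more heavy chains, IGHV7-3 was 0.667% in Cre+ (2 of 300) and 0 of 167 in Cre-, which allows up to 1.80%.

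The IGHV7-3 share of IgD among unswitched cells differed by 13.96 points from the other Cre+ cells (-7.12 to 35.6) and by -20.3 points from the other Cre- cells (-29.9 to -0.953). For the family these differences were 0.343 and -19.8 points. The lambda share of the family stood at -1.96 points in Cre+ and 0.788 points in Cre-. In these 3 pairs the sign differs between the libraries, and the difference of the differences was not tested.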

How the results depend on the processing

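The 21 results were recomputed under 123 alternatives. Of these 2 moved a value outside its interval, and none turned a direction whose interval excluded 0. CDR3 length and heavy-chain UMIs had no interval, and a change of up to 1 residue or 2 UMIs counted as the same. The margin of 1 residue is wider than the Cre+ length difference of 0.449 itself. The difference in switched share of Cre- cells was -9.39 points when a lineage counted once per isotype class, and -10.3 points without the largest lineage. The alternatives left the IGHJ1 excess with an interval above 0 in both libraries. The interval of the J mismatch difference gained 0 in Cre- with exactly 1 light chain, 6 bases of J or 12 bases of J, and lost 0 in Cre+ with 3 or more UMIs or without the largest lineage. Alternatives for the IgD share of IGHV7-3 and for heavy-chain UMIs were added after seeing the data and gave 33.8 to 42.6 points and 4 to 6 UMIs. No paired analysis was possible because there is 1 library per genotype. With 1 to 25 cells per gene and library, depth limits every share, and 4 pooled mice per library cannot be told apart.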
